A study of Mus musculus with 8 samples.

Results

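The histone variant gene H3f3b was deleted in mice, and the RNA of their post-meiotic male germ cells was compared with that of wild-type (WT) cells. The comparison used 4 of the 8 RNA-seq libraries of the study, chosen by their labels alone: 2 libraries of post-meiotic KO cells and 2 of post-meiotic WT cells. The other 4 libraries, 2 KO and 2 WT, came from meiotic cells of the same genotypes and entered the fit and the comparison of stages. KO mice carried the genotype labelled H3.3BKO/KO :Actin Cre WT, and WT mice the one labelled H3.3BWT/WT :Actin Cre WT. All were of the strain labelled C57BL/6 and aged between 3 and 6 months, and the mutant line was founded on targeted 129S2/SvPas embryonic stem cells. The KO allele came from a conditional, epitope-tagged allele whose coding exons were all flanked by loxP sites. The genotypes name no change of H3f3a in any group, and the labels do not give the number of clones or animals behind a library. Cells were separated on an albumin gradient, and the post-meiotic fraction was described by the study as mainly round spermatids with some elongated spermatids. The study's legends call the RNA-seq replicates of a group biologically independent. The labels do not say which animals they came from, so the p-values measure the spread between these libraries.

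H3.3 is a replacement histone that is deposited outside DNA replication, mainly by the HIRA complex at active genes and by DAXX with ATRX at repeats and telomeres. In mammals the same protein is encoded by a pair of genes, H3f3a and H3f3b. Round spermatids are haploid cells in which the sex chromosomes keep much of the silencing they acquired in meiosis. They make the acrosome and the tail, and later replace their histones by transition proteins and then protamines. The question was what the loss of the H3f3b gene did to the transcriptome of these cells.

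The post-meiotic libraries held 63398580 and 57853283 reads in genes for KO and 66734320 and 60539439 for WT. Of 29880 genes in the table, 20412 had enough reads to be tested, and the common biological coefficient of variation was 0.050. Levels are given as CPM, counts relative to the library's total on a fixed scale, after TMM scaling. A change is the log2 of KO over WT from edgeR's quasi-likelihood fit, with its standard error (SE), and p-values were adjusted by Benjamini-Hochberg over all genes tested. A gene was called when its adjusted p was under 0.01 and its log2 change beyond 1. Defining genes of spermatids were high in the fraction, with Prm1 at 4981 ± 115 CPM in KO and 5792 ± 85.5 CPM in WT and Prm2 at 8995 ± 655 CPM in KO and 9997 ± 92.6 CPM in WT (SD, n = 2 each). Relative to meiotic WT cells, post-meiotic WT cells had 1.62 and 1.75 log2 units more of them. The meiotic genes Sycp3 and Hist1h1t were 1.74 and 4.74 log2 units lower there, whereas Dmc1, a meiotic recombinase, was 0.57 higher and so went against its use as a meiotic marker. In bulk RNA, fewer cells of a type and less RNA per cell cannot be told apart.

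The deleted gene was nearly silent in the KO libraries, and its partner did not rise. H3f3b (ENSMUSG00000016559, mm9 chromosome 11, 115883226 to 115889276) had 6.43 and 7.70 CPM in the KO libraries, against 237 and 217 CPM in the WT libraries. These were 407 and 442 reads in KO and 14727 and 12130 in WT. The KO libraries thus kept 2.83% and 3.39% of the WT mean, a log2 change of -5.01 ± 0.08 (SE; edgeR adjusted p = 1.50e-15). H3f3a (ENSMUSG00000060743, mm9 chromosome 1, 182730963 to 182744074) had 116 and 117 CPM in KO and 129 and 122 CPM in WT. The KO values lay just under the WT values, and the difference did not pass the test (log2 change -0.11 ± 0.05, edgeR adjusted p = 0.0797).

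The pair encode the same protein with different codons, which matters for counting because only uniquely aligned reads were kept. Their coding sequences are 408 bases long and differ at 95 of them (76.7% identity), and the longest stretch without a difference was 23 bases. The first coding exon of each is shown from the start codon in the mm9 genome, as chr11:115885196-115885323 and chr1:182741930-182742057, both on the minus strand. The 25 bases that differ among these 128 are in capitals.
H3f3b: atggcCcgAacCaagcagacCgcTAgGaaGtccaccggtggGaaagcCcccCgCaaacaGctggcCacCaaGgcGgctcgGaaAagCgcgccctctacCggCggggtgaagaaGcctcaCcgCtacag
H3f3a: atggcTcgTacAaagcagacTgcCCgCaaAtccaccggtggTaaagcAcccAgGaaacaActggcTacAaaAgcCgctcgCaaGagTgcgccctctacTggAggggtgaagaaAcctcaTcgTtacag

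**Figure D1:**
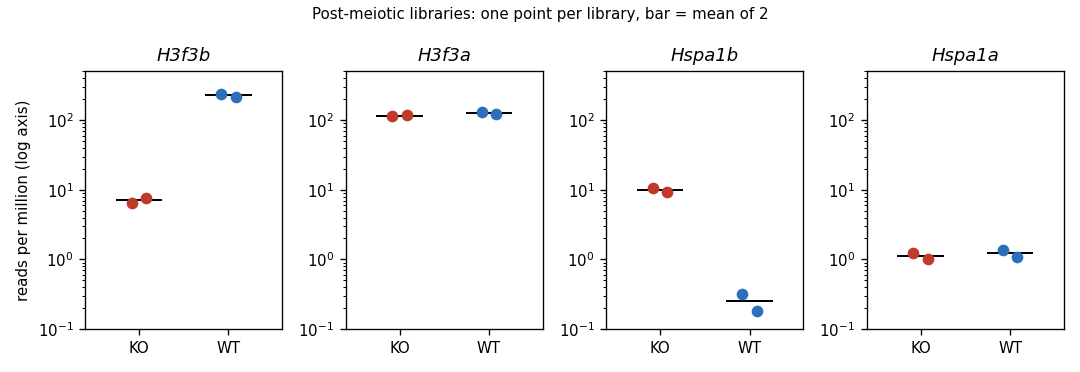
CPM (log axis) of H3f3b, H3f3a, Hspa1b and Hspa1a in each post-meiotic library, KO left of WT, with 1 point per library. H3f3b lies at 6.43 and 7.70 CPM in KO against 237 and 217 CPM in WT, Hspa1b at 10.7 and 9.15 CPM in KO against 0.322 and 0.179 CPM in WT, and the other gene of each pair is at similar levels in both genotypes.

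Across the transcriptome, 448 genes were called higher in KO than in WT (2.19% of those tested) and 174 lower (0.852%). The genes that rose were mostly of low level: their median was 1.85 CPM in KO and 0.714 CPM in WT, and 277 of the 448 had a WT mean under 1 CPM. Only 43 of them reached 10 CPM in KO. The genes that fell had a median of 0.814 CPM in KO and 2.04 CPM in WT, while the median WT level of all genes tested was 5.47 CPM. Changes of more than 2 log2 units were seen for 71 genes that rose and 28 that fell. With 2 libraries a group, all 448 and all 174 called genes were without overlap between the groups. Non-overlap, where stated below for genes or clusters that passed, is a description and no further support. Without KO library 1 the genes called higher numbered 260. Without a fold minimum 2529 genes were higher (12.4%) and 2376 lower (11.6%), and with 1 library left out these numbers were 979 and 1267 without KO library 1, 1438 and 1374 without KO library 2, 1442 and 1939 without WT library 1, and 1233 and 1477 without WT library 2. The balance of directions depended on the scaling. With library totals in place of TMM factors, 614 genes were called higher and 129 lower, and without a fold minimum 4009 were higher and 1183 lower. With RLE size factors the numbers without a fold minimum were 2080 higher and 3083 lower. The median change of all genes was 0.04 with TMM, -0.01 with RLE and 0.14 with library totals, so small changes of many genes are to be read relative to it.

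**Figure D2:**
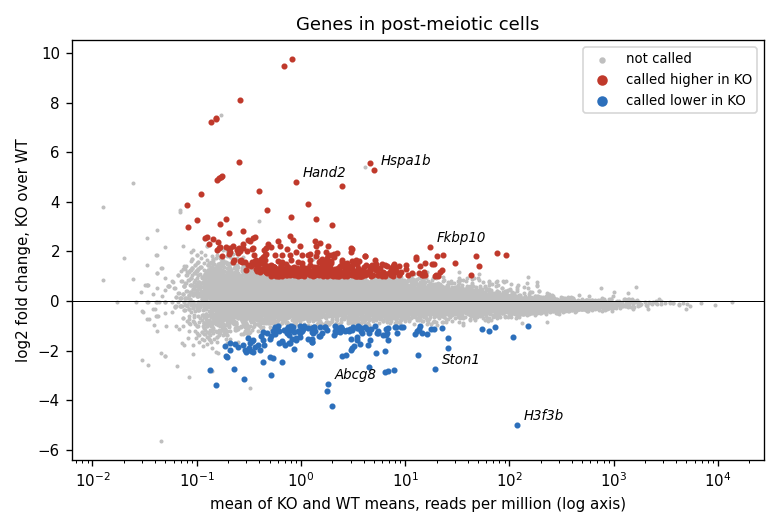
Log2 change of KO over WT in post-meiotic cells (vertical) against the mean level in CPM (horizontal, log axis), 1 point per gene tested, with called genes coloured. The 448 genes called higher and 174 called lower lie mostly at low levels, and H3f3b stands apart at -5.01.

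The largest rises fell on genes that were close to absent in WT spermatids. Hspa1b (ENSMUSG00000090877, mm9 chromosome 17, 35093381 to 35096183), which encodes an inducible cytosolic HSP70 chaperone, had 10.7 and 9.15 CPM in KO and 0.322 and 0.179 CPM in WT. These were 675 and 525 reads in KO against 20 and 10 in WT, a log2 change of 5.28 ± 0.22 (SE; edgeR adjusted p = 3.78e-12). The groups were more than an order of magnitude apart. Its neighbour Hspa1a, whose product is nearly the same protein, had 1.25 and 1.03 CPM in KO and 1.38 and 1.09 CPM in WT. Its values overlapped between genotypes (log2 change -0.12 ± 0.21, edgeR adjusted p = 0.678). Reads shared by this near-identical pair were not counted for either gene, so both levels are uncertain.

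The heat shock genes did not rise as a group. Of 25 genes of the heat shock list, Hspa1b included, 3 rose and 8 fell at an adjusted p under 0.01 without a fold minimum. Over all genes tested 12.4% were higher and 11.6% lower at that limit, so the number that rose was near the share of all genes. The median log2 change of the list was -0.08 against 0.04 for all genes. With library totals 4 rose and 2 fell, and with 1 library left out the numbers ranged from 1 (without KO library 1, KO library 2 or WT library 2) to 3 that rose and from 3 (without KO library 2 or WT library 1) to 6 that fell. Besides Hspa1b, the genes that rose were Hspd1, the mitochondrial chaperonin HSP60, with 13.5 and 14.2 CPM in KO and 10.4 and 9.62 CPM in WT (0.46 ± 0.10, edgeR adjusted p = 0.0012), and Hspa5, the HSP70 of the endoplasmic reticulum, with 627 and 617 CPM in KO and 553 and 529 CPM in WT (0.20 ± 0.04, edgeR adjusted p = 0.00129). Hspb7, a small heat shock protein, fell by 1.08 on the log2 scale (edgeR adjusted p = 0.00179). The values did not pass the limit for Hspa8, the constitutive HSP70 (0.29, edgeR adjusted p = 0.0243), for the co-chaperone Dnajb1 (-0.12, edgeR adjusted p = 0.0467) or for Hsf1, the main heat shock factor (-0.15, edgeR adjusted p = 0.112). Hsf2, the heat shock factor known for its role in spermatogenesis, had 86.3 and 87.6 CPM in KO and 112 and 111 CPM in WT. It was lower in both KO libraries (log2 change -0.36 ± 0.05, edgeR adjusted p = 2.18e-05).

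The promoters of Hspa1b and Hspa1a are shown because the counted levels of the genes, uncertain as they are for this pair, moved so differently while these sequences differ so little. They are from RefSeq for GRCm38.p6, 250 bases before and 50 after each start, at chr17:34959189-34959488 and chr17:34972107-34972406, both on the minus strand. The 4 bases that differ are in capitals (98.7% identity).
Hspa1b: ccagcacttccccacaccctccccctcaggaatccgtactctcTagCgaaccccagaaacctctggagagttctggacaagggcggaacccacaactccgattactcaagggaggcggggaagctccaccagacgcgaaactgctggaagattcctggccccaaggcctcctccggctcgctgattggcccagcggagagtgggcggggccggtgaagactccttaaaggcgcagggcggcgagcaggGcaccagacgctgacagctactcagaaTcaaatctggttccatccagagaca
Hspa1a: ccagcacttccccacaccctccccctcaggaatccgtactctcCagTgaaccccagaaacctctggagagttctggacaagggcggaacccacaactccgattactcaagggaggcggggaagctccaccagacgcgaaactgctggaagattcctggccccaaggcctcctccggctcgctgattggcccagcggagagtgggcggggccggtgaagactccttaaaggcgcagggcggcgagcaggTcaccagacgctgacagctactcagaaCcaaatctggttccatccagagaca
The core of a heat shock element was searched as GAANNTTC or TTCNNGAA, each its own reverse complement, so that a single pass covers both strands, and matches of the pair of forms may overlap. It occurred once in each promoter, starting at base 147, a stretch the pair share. Among 32851 RefSeq promoters of the same length, 4946 held it (15.1%).

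After Hspa1b the largest rise among named genes was that of Hand2, which encodes a helix-loop-helix factor needed for the developing heart and limbs. It had 1.55 and 1.92 CPM in KO and 0.0966 and 0.0179 CPM in WT, a log2 change of 4.82 ± 0.37 (SE; edgeR adjusted p = 2.13e-08). Yjefn3 had 2.91 and 6.62 CPM in KO and 0.193 and 0.179 CPM in WT (4.65 ± 0.79, edgeR adjusted p = 0.00996). Its KO libraries lay apart from each other, and its call was lost without WT library 1 (edgeR adjusted p = 0.0631) or WT library 2 (0.0671). Cd163l1, a scavenger receptor, rose by 3.66 ± 0.41 and the zinc finger gene Zfp811 by 3.32 ± 0.23 (edgeR adjusted p = 2.09e-06 for Cd163l1 and 5.82e-09 for Zfp811). Dcc, a netrin receptor, Scel, a protein of cornified cells, and Fah, the last enzyme of tyrosine breakdown, rose by 2.48, 2.35 and 2.21 log2 units. Fkbp10, a collagen chaperone of the endoplasmic reticulum, was the most abundant of them, with 28.7 and 28.2 CPM in KO and 6.21 and 6.25 CPM in WT (2.19 ± 0.08, edgeR adjusted p = 3.11e-13). Its replicates were close to each other in both genotypes.

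Of the 448 genes called higher, 87 carried a clone, predicted-gene, pseudogene, or olfactory or vomeronasal receptor name, as did 69 of the 174 called lower. The share of such names over all genes tested was not counted. The genes so named include near-identical copies of other genes, whose counts are uncertain. Gm10260 had 8.90 and 9.08 CPM in KO and 0.193 and 0.179 CPM in WT, a log2 change of 5.58. In 6 of the 448 no read was found in either WT library, so only a lower bound can be given, against a floor of 3 reads over both WT libraries that covers counting error only. Rps2-ps13, an X-linked ribosomal protein pseudogene with 98 and 101 reads in KO, was at least 65.0-fold higher, and Gm13841, with 78 and 86 reads, at least 53.7-fold. The other 4 (Gm9825, Gm9008, Gm15302 and Gm18733) were at least 10.9-fold to 20.6-fold higher.

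The falls reached genes of higher level. Apart from H3f3b, the largest fall of a named gene was that of Abcg8, a sterol transporter subunit, with 0.348 and 0.296 CPM in KO and 3.78 and 2.83 CPM in WT (log2 change -3.35 ± 0.24, edgeR adjusted p = 5.92e-09). Ston1, an endocytic adaptor, had 5.21 and 4.72 CPM in KO and 35.8 and 31.3 CPM in WT (-2.75 ± 0.12, edgeR adjusted p = 8.73e-10). Ptpro, a receptor tyrosine phosphatase, had 1.99 and 1.38 CPM in KO and 12.1 and 11.8 CPM in WT, a fall of 2.82 log2 units. In each the KO libraries lay under the WT libraries, which the choice of the largest changes required. Fmnl1, a formin that builds actin filaments, had 1.58 and 1.59 CPM in KO and 13 and 9.70 CPM in WT (-2.84). Jak3, a cytokine receptor kinase, had 1.98 and 1.97 CPM in KO and 9.27 and 7.72 CPM in WT (-2.11). Trpv1, the capsaicin receptor, had 1.01 and 0.941 CPM in KO and 4.93 and 4.03 CPM in WT (-2.20). Fut2, a fucosyltransferase, and Prrt4 fell by 2.47 and 2.29 log2 units. Hspbap1, named for binding a small heat shock protein, had 4.95 and 4.71 CPM in KO and 23.2 and 20.6 CPM in WT (-2.18 ± 0.09, edgeR adjusted p = 2.36e-12). It fell further here than in meiotic cells, where its change was -1.25 (difference -0.93 ± 0.13, edgeR adjusted p = 0.000351).

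Many of these changes were also seen in the meiotic libraries. Of the 448 genes called higher, 153 were called higher in meiotic KO cells too, and 364 had a change of the same sign there. Of the 174 called lower, 83 were called lower in meiotic KO cells and 172 had the same sign. For comparison, 269 genes were called higher and 176 lower in meiotic KO cells over all genes tested. Hand2, Zfp811, Fkbp10, Abcg8, Ston1 and Ptpro changed by 5.98, 3.38, 1.94, -3.87, -2.48 and -3.08 log2 units in meiotic cells. The stages were separate libraries with their own WT controls. The labels do not say whether they came from the same mice. The meiotic WT libraries also held spermatid transcripts, with Prm1 at 1885 CPM and Prm2 at 2968 CPM on average. The part of carried-over cells or RNA in the shared changes was not tested. The share of same-sign changes over all genes was not counted.

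Apart from H3f3b, genes for H3.3 and for chaperones of H3 histones changed little in size. Of 16 genes for H3.3, its chaperones and other H3 chaperones, H3f3b included, 2 rose and 4 fell. This was at an adjusted p under 0.01 without a fold minimum, where 12.4% of all genes were higher and 11.6% lower. Daxx, the chaperone for repeats and telomeres, had 93.9 and 95.1 CPM in KO and 121 and 116 CPM in WT, a log2 change of -0.33 ± 0.05 (edgeR adjusted p = 3.30e-05). Chaf1a, the large subunit of the replication-coupled chaperone CAF-1, had 193 and 204 CPM in KO and 245 and 247 CPM in WT (-0.31). Both were lower in each KO library than in each WT library. The X-linked remodeller Atrx had 18.4 and 16.6 CPM in KO and 12.9 and 12.5 CPM in WT (0.46 ± 0.08, edgeR adjusted p = 0.000258), and Hira had 6.57 and 7.32 CPM in KO and 5.36 and 5.48 CPM in WT (0.36 ± 0.10, edgeR adjusted p = 0.00874). Hira did not pass once any single library was left out (edgeR adjusted p 0.021 to 0.103), nor did Atrx without KO library 1 (0.0165). Without KO library 1 no gene of the list passed as higher and 3 passed as lower, and without any other library 1 passed as higher and 3 as lower. With library totals 4 passed as higher and 3 as lower. The median change of the list was -0.07 with TMM and 0.03 with library totals.

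The replication-dependent histone genes, which supply histones in S phase, had members that rose in every class. Among the H4 genes 9 of 11 rose and none fell at an adjusted p under 0.01, with a median log2 change of 0.69. Hist1h4c had 78.4 and 85.3 CPM in KO and 46.3 and 46.2 CPM in WT (0.82 ± 0.05, edgeR adjusted p = 2.71e-09), and Hist1h4d had 18.7 and 20.8 CPM in KO and 9.55 and 9.50 CPM in WT (1.05). The KO libraries were above both WT libraries in each. Among the H1 genes 4 of 5 rose (median 0.62), among the H2A genes 4 of 13 (0.52), among the H2B genes 6 of 15 with 1 that fell (0.39), and among the H3 genes 3 of 12 (0.64). The H3 gene Hist1h3f had 6.94 and 6.01 CPM in KO and 1.59 and 2.1 CPM in WT, a log2 change of 1.82 ± 0.13 (edgeR adjusted p = 1.17e-08). It remained a minor transcript beside H3f3a. Hist1h2bb had 136 and 120 CPM in KO and 81.5 and 77.9 CPM in WT (0.69), whereas Hist1h2bp had 38.2 and 36.5 CPM in KO and 53.3 and 53.5 CPM in WT (-0.52). The H3 genes that rose were 5 with library totals, with the replicate block or without a filter on low counts. With library totals, RLE or DESeq2 the members that passed as higher outnumbered those that passed as lower in all 5 classes. With 1 library left out the H2A genes that passed fell to 1 (without KO library 2 or WT library 1) or 2 (without WT library 2), the H3 genes to 2 (without any library but KO library 1), and the H2B genes to 3 (without KO library 1 or WT library 2). Near-identical copies make the level of single members uncertain. In meiotic KO cells the medians were 0.92 for H1, 0.70 for H2A, 0.72 for H2B, 0.78 for H3 and 0.88 for H4.

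Genes of spermatid chromatin remodelling were split. Of 13 genes, 2 rose and 2 fell, with a median log2 change of -0.14. Those that rose encode testis-specific histones of the H2A and H2B classes: Hist1h2ba had 76.3 and 82.4 CPM in KO and 47.8 and 46.0 CPM in WT (0.76 ± 0.05, edgeR adjusted p = 3.40e-09), and Hist1h2aa had 74.8 and 80.1 CPM in KO and 49.8 and 49.7 CPM in WT (0.64 ± 0.06, edgeR adjusted p = 8.38e-07). Hist1h2aa rose less here than in meiotic cells, where its change was 1.30. The remodeller Chd5 had 419 and 472 CPM in KO and 526 and 552 CPM in WT (-0.27, edgeR adjusted p = 0.000438), and the acetyl-histone reader Brdt 238 and 235 CPM in KO and 271 and 275 CPM in WT (-0.21, edgeR adjusted p = 0.00189). The number that fell was 6 with the 4 post-meiotic libraries alone or without a filter on low counts. With library totals none of the 13 passed as lower, as was also the case without KO library 1, and without KO library 2 or WT library 2 only 1 did. Brdt had an adjusted p of 0.012 to 0.0226 without these 3 libraries and Chd5 one of 0.0196 without KO library 1. The transition proteins and protamines themselves did not pass: the log2 change was -0.14 for Tnp1 (edgeR adjusted p = 0.144), -0.14 for Tnp2 (0.531), -0.22 for Prm1 (0.181) and -0.15 for Prm2 (0.113).

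Transcripts of the acrosome, the sac of enzymes at the sperm head, were modestly lower as a group. Of 20 genes, 16 fell and none rose at an adjusted p under 0.01 (median log2 change -0.23), against 11.6% of all genes that were lower. Zp3r, a zona pellucida binding protein, had 156 and 155 CPM in KO and 212 and 208 CPM in WT (-0.43 ± 0.05, edgeR adjusted p = 1.21e-06). The sperm hyaluronidase Spam1 had 106 and 104 CPM in KO and 148 and 138 CPM in WT (-0.43), and the protease acrosin, Acr, had 114 and 116 CPM in KO and 147 and 149 CPM in WT (-0.36). In these 3 the replicates agreed closely and the genotypes did not overlap. Acrv1, an acrosomal matrix protein, had 146 and 147 CPM in KO and 189 and 198 CPM in WT (-0.40), and its change differed from the -0.06 of meiotic cells (difference -0.33 ± 0.07, edgeR adjusted p = 0.00614). Summed over the list, the level was 5719 and 5629 CPM in KO and 6558 and 6649 CPM in WT. With library totals 9 fell and the median was -0.13, beside a shift of all genes of 0.14, and without KO library 2 or WT library 2 the number that fell was 10.

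Genes of the sperm tail moved the same way. Of 24 genes, 14 fell and none rose (median -0.18). Catsper1, the pore subunit of the sperm calcium channel, had 46.0 and 49.4 CPM in KO and 71.6 and 74.4 CPM in WT, a log2 change of -0.61 ± 0.06 (edgeR adjusted p = 2.11e-07). Catsper3 had 55.3 and 61.1 CPM in KO and 88.3 and 86.5 CPM in WT (-0.59 ± 0.06, edgeR adjusted p = 5.10e-07). Both were lower in KO without overlap, and neither passed in meiotic cells, where the changes were -0.13 and -0.11 (edgeR adjusted p of the difference 0.0016 for Catsper1 and 0.00221 for Catsper3). Catsper2 was less affected, with 262 and 266 CPM in KO and 324 and 315 CPM in WT (-0.28), and the ciliary filament gene Tekt5 had 96.4 and 102 CPM in KO and 127 and 145 CPM in WT (-0.45). The number that fell was 7 with library totals, 6 without KO library 1 or WT library 2, and 8 without KO library 2.

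Among 21 transcription factors, RNA-binding proteins and kinases of spermatids, 1 rose and 8 fell (median -0.15). Crem, the cAMP-responsive factor that drives many spermatid genes, had 253 and 254 CPM in KO and 303 and 308 CPM in WT (-0.27 ± 0.05, edgeR adjusted p = 0.000141). Tssk4, a testis-specific kinase, had 119 and 119 CPM in KO and 160 and 157 CPM in WT (-0.41). The gene that rose was the X-linked TAF7 paralog Taf7l (0.25), and it no longer passed without any single one of the 4 libraries (edgeR adjusted p 0.014 to 0.0403). With library totals 2 of the 21 rose and 2 fell, with DESeq2 0 and 12, and with the 4 post-meiotic libraries alone 1 and 12. The number that fell was 5 without KO library 1 or KO library 2 and 4 without WT library 2.

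Most genes of meiotic prophase that passed went the other way. Of 35 genes, 15 rose and 2 fell, with a median log2 change of 0.22, and 14 had a change below 0. The summed level was 4714 and 4611 CPM in KO and 4724 and 4793 CPM in WT. It was thus not higher in KO. In meiotic KO cells 18 genes of the list passed as higher and 1 as lower (median 0.26). The change here minus the meiotic change passed above 0 for 1 gene, Hist1h1t, and below 0 for 3. Hist1h1t, the linker histone of spermatocytes, had 58.7 and 53.5 CPM in KO and 30.0 and 31.4 CPM in WT (0.87 ± 0.06, edgeR adjusted p = 8.24e-09), more than its change of 0.26 in meiotic cells (difference 0.61 ± 0.08, edgeR adjusted p = 0.000351). Sycp3, of the synaptonemal complex axis, had 101 and 98.2 CPM in KO and 66.8 and 69.9 CPM in WT (0.55), and Dmc1 had 17.9 and 19.7 CPM in KO and 11.4 and 11.8 CPM in WT (0.70). Mei1, needed for meiotic recombination in mice, had 20.4 and 22.4 CPM in KO and 14 and 13.7 CPM in WT (0.62). The KO libraries were above both WT libraries in all 4. Rec8, the meiotic cohesin subunit, had 69.8 and 74.4 CPM in KO and 91.0 and 87.1 CPM in WT (-0.31). With RLE 13 rose and 4 fell, with DESeq2 13 and 5, and with 1 library left out 9 (without KO library 1 or WT library 1) to 11 rose, 10 of them without KO library 2. The part of carried-over spermatocytes or their RNA in these values was not tested.

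Of 26 genes of spermatogonia, the stem and precursor cells, 6 rose and 2 fell (median 0.18), a count that was 3 and 3 with RLE, 3 and 2 with DESeq2, 10 and 2 with library totals, 9 and 3 without a filter on low counts and 9 and 2 with the replicate block, and 2 to 4 rose with 1 library left out (2 without KO library 2, 3 without WT library 1 or WT library 2). Dazl, a germ cell RNA-binding protein, had 116 and 122 CPM in KO and 85.8 and 82.4 CPM in WT (0.50). Bcl6b, a repressor of stem cells, had 7.11 and 7.97 CPM in KO and 4.4 and 4.64 CPM in WT (0.74). Both exceeded WT in each KO library. Lhx1 had 2.70 and 3.09 CPM in KO and 5.88 and 5.23 CPM in WT (-0.94), and Pou5f1, the pluripotency factor OCT4, had 3.05 and 3.12 CPM in KO and 4.85 and 5.25 CPM in WT (-0.71).

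**Figure D3:**
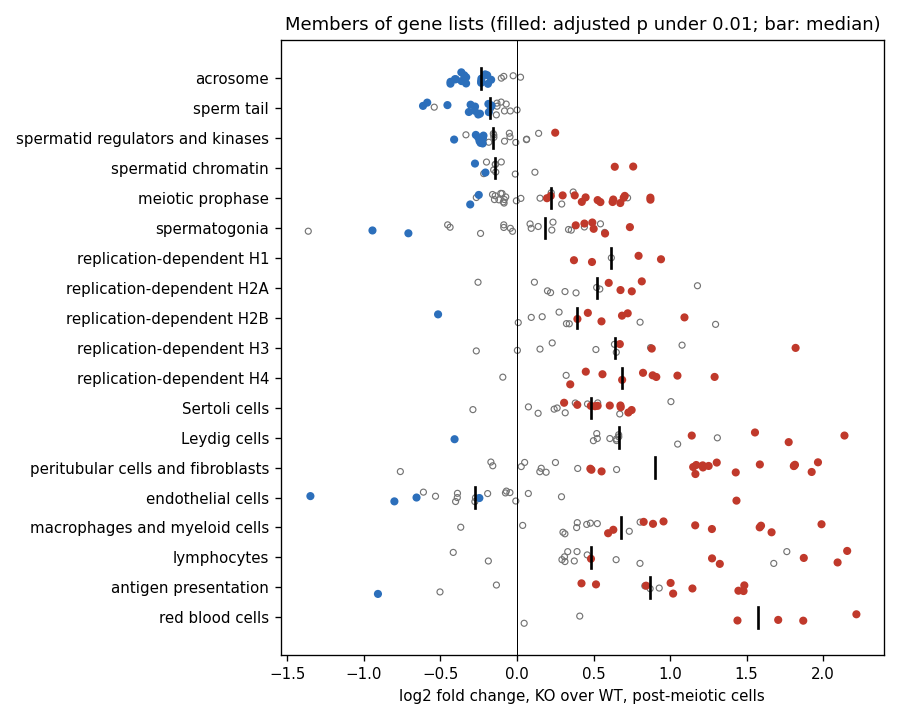
Log2 change of KO over WT in post-meiotic cells (horizontal) for each tested member of 19 gene lists, 1 point per gene, filled where the adjusted p was under 0.01, with a bar at the list's median. The medians of acrosome and tail genes lie left of 0 (-0.23 and -0.18). Those of meiotic prophase genes, replication-dependent H4 genes and genes of peritubular cells lie right of it (0.22, 0.69 and 0.90).

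In the lists above and below where no member passed in a direction, DESeq2 made no call in that direction either, and at an unadjusted p under 0.05 only 1 gene did, a lower one of the peritubular list. In every list, counts without a fold minimum stand beside 12.4% of all genes tested that were higher and 11.6% that were lower.

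The X chromosome was shifted towards higher levels in KO. Of 966 X-linked genes tested, out of 1745 in the table, 227 were higher (23.5%) and 5 lower (0.52%) at an adjusted p under 0.01, and 774 (80.1%) had a change above 0. Their median log2 change was 0.31. On single autosomes the median lay between -0.03 and 0.06, with 9.48% to 13.4% of genes higher and 10.8% to 13.9% lower. Summed over the chromosome, the level was 16848 and 16862 CPM in KO and 14635 and 15336 CPM in WT. Of these genes 30 were called higher, against 2.19% of all genes tested. Cacna1f, a calcium channel subunit of the retina, had 3.46 and 3.68 CPM in KO and 0.290 and 0.574 CPM in WT (3.06 ± 0.23, edgeR adjusted p = 1.23e-08), and the predicted gene Gm9043 rose by 2.43. In meiotic KO cells the median was 0.32. The X-linked counts were of the same direction with RLE (195 higher and 14 lower, median 0.27), library totals (330 and 2, median 0.42) and DESeq2 (156 and 9). With 1 library left out the number higher was 98 without KO library 1, 128 without KO library 2, 132 without WT library 1 and 123 without WT library 2, with a median of 0.29 to 0.31.

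The Y chromosome showed the same direction in few genes. Of 13 tested, 5 rose and none fell (median 0.32). The RNA helicase Ddx3y had 28.3 and 27.6 CPM in KO and 13.2 and 14.4 CPM in WT (1.02 ± 0.07, edgeR adjusted p = 7.05e-09). The demethylase Uty had 25.2 and 26.4 CPM in KO and 15.2 and 16.3 CPM in WT (0.71), and the deubiquitinase Usp9y had 43.0 and 42.5 CPM in KO and 32.6 and 33.0 CPM in WT (0.38). None of these overlapped between genotypes. The 5 became 9 with library totals, and 3 with RLE or DESeq2 and without KO library 1 or KO library 2. Of 21 germ cell genes on the sex chromosomes 9 rose and 1 fell (median 0.29), of which 4, 3, 4 and 5 passed as higher without KO library 1, KO library 2, WT library 1 and WT library 2. With library totals 14 of them rose, with RLE 6 and with DESeq2 5. Of 15 mitochondrial genes, 7 rose (median 0.25).

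**Figure D4:**
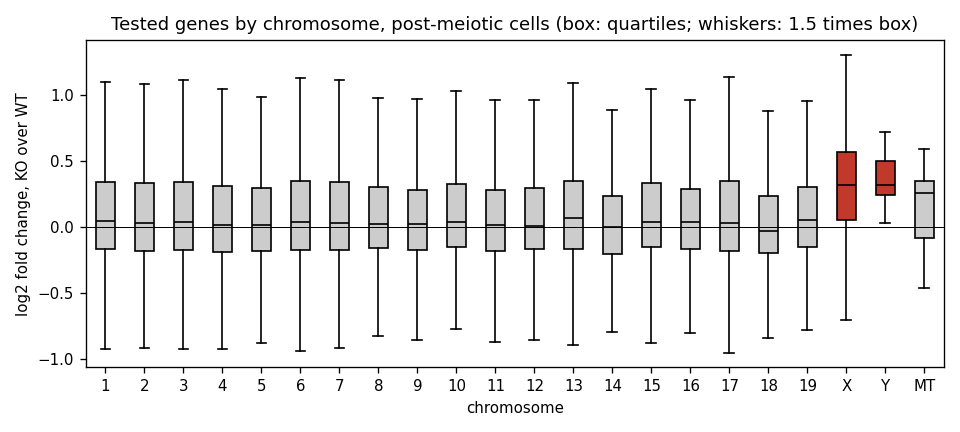
Log2 change of KO over WT in post-meiotic cells for all tested genes of each chromosome, as box plots (line at the median, box from the lower to the upper quartile). The X and Y chromosomes, in red, have medians of 0.31 and 0.32, while the autosomes lie between -0.03 and 0.06.

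Genes of the cells around the tubules were higher in KO, although the fraction was one of spermatids. Of 28 genes of peritubular cells and fibroblasts, 17 rose and none fell, and 14 of them were called higher (median 0.90). Postn, an extracellular matrix protein, had 32.7 and 29.6 CPM in KO and 8.19 and 9.64 CPM in WT (1.81 ± 0.08, edgeR adjusted p = 1.15e-11). The mesenchymal receptor Pdgfra had 35.8 and 27.7 CPM in KO and 14.5 and 12.1 CPM in WT (1.25), and S100a4, a fibroblast calcium-binding protein, had 2.50 and 2.00 CPM in KO and 0.644 and 0.502 CPM in WT (1.97). The KO libraries were above both WT libraries in each. Mgp, an inhibitor of mineral deposition, had 7.14 and 5.58 CPM in KO and 1.75 and 1.86 CPM in WT (1.82 ± 0.16, edgeR adjusted p = 9.47e-08), against a change of -1.14 in meiotic cells (difference 2.96 ± 0.35, edgeR adjusted p = 0.000119). The summed level of the list was 953 and 826 CPM in KO and 644 and 609 CPM in WT, and none of its genes was at 0 in all post-meiotic libraries. In meiotic cells it was 285 and 266 CPM in KO and 257 and 261 CPM in WT. With 1 library left out 12 to 17 rose. Whether more somatic cells or more RNA per cell was present cannot be told apart.

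Of 21 Sertoli cell genes 10 rose and none fell (median 0.48), but this count was 4 without KO library 1, 3 without KO library 2 and 2 without WT library 2. Ctsl, a lysosomal protease secreted by Sertoli cells, had 65.2 and 62.4 CPM in KO and 49.0 and 42.3 CPM in WT (0.48 ± 0.07, edgeR adjusted p = 1.99e-05), and Wt1, a transcription factor that marks them, had 6.95 and 8.56 CPM in KO and 4.75 and 4.95 CPM in WT (0.68). The summed level was 239 and 235 CPM in KO and 195 and 169 CPM in WT. Of 15 Leydig cell genes 4 rose and 1 fell, and neither the cholesterol carrier Star (0.66, edgeR adjusted p = 0.199) nor the peptide hormone gene Insl3 (1.05, edgeR adjusted p = 0.123) passed. Hsd11b1, a glucocorticoid-activating enzyme, had 0.711 and 0.540 CPM in KO and 0.145 and 0.287 CPM in WT (1.56 ± 0.43, edgeR adjusted p = 0.00779). The kallikrein Klk1b24 had 0.806 and 0.697 CPM in KO and 0.193 and 0.143 CPM in WT (2.14), and Klk1b21 rose by 1.78. The Leydig genes that rose were 8 with the replicate block, 7 with the 4 post-meiotic libraries alone or without a filter on low counts, 1 with a minimum of 50 reads, and 2 with 1 library left out (3 without KO library 1). Kallikreins are near-identical copies, so these levels are uncertain. Scarb1, the HDL receptor, had 51.5 and 51.6 CPM in KO and 65.6 and 71.2 CPM in WT (-0.41). The summed Leydig level was 103 and 102 CPM in KO and 103 and 97.9 CPM in WT.

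Of 41 collagen genes, 16 rose and 6 fell (median 0.34). Col3a1, of interstitial fibres, had 49.0 and 41.3 CPM in KO and 17 and 13.8 CPM in WT (1.55 ± 0.10, edgeR adjusted p = 2.13e-08). Those that fell included the most abundant, Col22a1, with 466 and 500 CPM in KO and 605 and 625 CPM in WT (-0.35), and Col5a1, with 38.4 and 39.5 CPM in KO and 49.7 and 52.4 CPM in WT (-0.39). Without KO library 1 only 2 passed as lower. Of 19 endothelial genes, in contrast, 1 rose and 4 fell (median -0.27): the lymphatic VEGF receptor Flt4 had 9.18 and 9.24 CPM in KO and 22.9 and 24.0 CPM in WT (-1.35), Kdr, the main VEGF receptor, fell by 0.80, and the anticoagulant receptor Thbd had 12.7 and 9.90 CPM in KO and 4.54 and 3.80 CPM in WT (1.43). The endothelial genes that fell numbered 2 without KO library 1 or WT library 1. Endothelial and peritubular lists thus differed in direction in the same libraries.

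Many genes of blood and immune cells rose. Of 22 genes of macrophages and other myeloid cells 11 rose and none fell (median 0.68), with Itgax, an integrin of dendritic cells, at 2.43 and 3.12 CPM in KO and 0.660 and 0.735 CPM in WT (1.99 ± 0.20, edgeR adjusted p = 6.35e-07) and Emr1, the macrophage antigen F4/80, at 12.6 and 10.7 CPM in KO and 6.46 and 6.11 CPM in WT (0.89). Of 19 lymphocyte genes 6 rose and none fell (median 0.48). The T cell kinase Lck had 5.28 and 4.51 CPM in KO and 0.853 and 1.36 CPM in WT (2.16), and Cxcr6, a chemokine receptor, rose by 1.87. Both lists kept their direction with 1 library left out (8 to 11 myeloid genes and 4 to 6 lymphocyte genes rose, with 4 without either WT library). Of 6 red cell genes 4 rose and none fell (median 1.57), in each such fit too. The beta globin Hbb-b1 had 20.4 and 18.2 CPM in KO and 6.00 and 5.82 CPM in WT (1.71 ± 0.10, edgeR adjusted p = 5.87e-10). Its change was -0.27 in meiotic cells (difference 1.98 ± 0.26, edgeR adjusted p = 0.000351). The summed red cell level was 33.3 and 31.6 CPM in KO and 12.5 and 11.8 CPM in WT, and it was 2.74 to 3.17 CPM in the meiotic libraries.

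Of 15 antigen presentation genes 9 rose and 1 fell (median 0.87). H2-K1, a class I heavy chain, had 46.6 and 45.9 CPM in KO and 26.3 and 25.3 CPM in WT (0.84 ± 0.06, edgeR adjusted p = 9.72e-09), and H2-D1 had 29.7 and 23.4 CPM in KO and 9.85 and 9.16 CPM in WT (1.48). The class II chain H2-Ab1 had 25.3 and 26.0 CPM in KO and 12.1 and 13.5 CPM in WT (1.00), and H2-Eb1 had 15.8 and 13.9 CPM in KO and 4.99 and 5.91 CPM in WT (1.45). Each was higher in both KO libraries. Nlrc5, the transactivator of class I genes, had 8.58 and 8.45 CPM in KO and 13.9 and 18.1 CPM in WT (-0.91), and Psmb9 had no reads. Of 14 complement genes 6 rose and 2 fell. Serping1, the C1 inhibitor, rose by 1.55 and C4b, the fourth component, fell by 0.98 on the log2 scale. The complement genes that passed without KO library 1 were 3 higher and 1 lower, and without WT library 1 they were 4 and 1. Of 22 genes of interferon response and RNA sensing 3 rose and 2 fell. Stat2 had 3.90 and 4.27 CPM in KO and 1.96 and 1.90 CPM in WT (1.08), while Cmpk2 fell by 1.12 log2 units. With library totals 6 interferon genes rose and 2 fell. Only 1 passed as higher without KO library 1 or WT library 2, and without WT library 1 there were 2. Over all these somatic, blood and matrix lists, 49 of 200 genes tested were called higher and 2 lower. Of all genes tested 2.19% were called higher and 0.852% lower.

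The major histocompatibility region and the surroundings of the deleted gene were also counted by position. In 5 Mb windows of mm9, the median window held 1 called gene and 227 of 538 held none. The window with most called genes was chromosome 17 from 35000001 to 40000000, with 13 of 114 genes tested, and it holds Hspa1b. The window of chromosome 11 from 115000001 to 120000000, which holds H3f3b, had 10 of 133, and chromosome 17 from 30000001 to 35000000 had 8 of 125. Over the MHC region 18 of 144 genes tested were called higher and 2 lower, against 2.19% and 0.852% of all genes. Among them Neu1, a lysosomal sialidase, had 4.54 and 5.07 CPM in KO and 1.37 and 1.06 CPM in WT (1.98). Ppp1r18, a phosphatase subunit, had 10.9 and 11.4 CPM in KO and 22 and 26.7 CPM in WT (-1.13). Without a fold minimum 32 were higher and 16 lower in the MHC region, or 42 and 8 with library totals, 21 and 7 without KO library 1 and 23 and 10 without WT library 2. Over all genes, 12.4% were higher and 11.6% lower without a fold minimum. Of 73 genes tested within 1 Mb to either side of H3f3b, 4 were called higher and 2 lower. Among all genes the called shares were 2.19% and 0.852%. Without a fold minimum 9 of the 73 were higher and 13 lower, with a median log2 change of 0.0009. With library totals these numbers were 15 and 7. Evpl, an envelope protein of squamous cells, had 24.7 and 27.9 CPM in KO and 11.8 and 13.9 CPM in WT (1.04), and the myosin gene Myo15b had 2.77 and 2.32 CPM in KO and 11.6 and 9.0 CPM in WT (-2.02). Caskin2, a scaffold protein, had 3.68 and 3.71 CPM in KO and 8.39 and 10.5 CPM in WT (-1.35), and the globin Cygb rose by 1.08. Whether sequence from the founding stem cells remains near these genes was not tested.

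Immediate early genes, which respond within minutes to stimuli, were split by member. Of 23 tested, 9 rose and 4 fell (median 0.37). Fos had 3.38 and 2.60 CPM in KO and 0.789 and 0.466 CPM in WT (2.24 ± 0.27, edgeR adjusted p = 1.71e-05), and its partner Jun had 4.76 and 4.24 CPM in KO and 2.48 and 2.40 CPM in WT (0.88). Klf4, which is abundant in spermatids, had 147 and 153 CPM in KO and 202 and 203 CPM in WT (-0.44). Fos, Jun and Klf4 did not overlap between genotypes. The immediate early list had 11 higher and 1 lower with library totals. It had, without KO library 1, 3 higher and 1 lower, and without WT library 2 it had 4 and 1. Of 29 genes of p53 and apoptosis 4 rose and 5 fell, or 9 and 2 with library totals and 2 and 5 with DESeq2, and the p53 target Phlda3 had 1.5 and 1.39 CPM in KO and 0.692 and 0.663 CPM in WT (1.09). The p53 list had, without KO library 1, 1 higher and 2 lower, without WT library 1 it had 1 and 3, and without WT library 2 it had 2 and 2.

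Energy metabolism showed small and mixed changes. Of 39 nuclear genes of oxidative phosphorylation 4 rose and 5 fell, shares near those of all genes (12.4% and 11.6%), with a median of -0.08 that was 0.02 with library totals. The numbers were 4 and 1 with library totals, 2 and 10 with RLE and 2 and 11 with DESeq2. Without KO library 1 none passed as higher and 3 as lower, and without KO library 2 or WT library 2 only 1 passed as higher. Of 21 glycolysis genes 2 rose and 7 fell (median -0.12), or 5 and 5 with library totals. The X-linked kinase Pgk1 had 13.8 and 13 CPM in KO and 7.76 and 7.55 CPM in WT (0.81), whereas its testis-specific retrogene Pgk2 had 1594 and 1512 CPM in KO and 1589 and 1624 CPM in WT (-0.05, edgeR adjusted p = 0.463). Eno1, enolase, had 120 and 119 CPM in KO and 175 and 177 CPM in WT (-0.56 ± 0.05, edgeR adjusted p = 4.74e-08). For glycolysis 1 gene passed as higher without KO library 1 or WT library 2, and without WT library 1 there were 3.

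For most genes the KO effect was not shown to differ between stages. At an adjusted p under 0.01 and a log2 difference beyond 1, the post-meiotic effect exceeded the meiotic one for 102 genes (0.5%) and was below it for 1 (0.0049%). Of the 102, 42 were called higher in post-meiotic cells and 14 were in the somatic, blood and matrix lists. The 102 became 14 without KO library 1, 28 without WT library 2, 33 without meiotic WT library 1 and 49 without meiotic KO library 2. Gli1, the Hedgehog effector, had 2.05 and 1.59 CPM in post-meiotic KO and 0.805 and 0.771 CPM in post-meiotic WT (1.21), against a change of -1.64 in meiotic cells. Ogn, a matrix proteoglycan, had 12.7 and 9.20 CPM in post-meiotic KO and 5.25 and 4.16 CPM in post-meiotic WT (1.22), against -1.35. Both went in opposite directions in the 2 stages, but the difference no longer passed for Gli1 without any single library (edgeR adjusted p 0.0107 to 0.0382) nor for Ogn without any single WT library of either stage (0.012 to 0.04). For Mgp the difference of 2.96 passed without any single library. H3f3b itself fell less in post-meiotic than in meiotic cells (difference 0.72 ± 0.11, edgeR adjusted p = 0.00153). Its mean was 10.5 CPM in meiotic KO and 561 CPM in meiotic WT. In post-meiotic cells it was 7.07 CPM in KO and 227 CPM in WT. In proportion, the WT level thus differed more between stages than what was left in KO.

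The piRNA clusters, long transcripts that are cut into small RNAs which silence transposons, were counted in the same libraries. The authors first removed reads over listed types of annotated genes and their flanks, with regard to strand. The cluster intervals themselves can overlap genes. Of 876 clusters 402 were tested in a joint fit with the genes, and 19 (4.73%) were called higher and 2 (0.498%) lower at a log2 change beyond 0.5. Without a fold minimum 42 (10.4%) were higher and 8 (1.99%) lower, or 64 and 3 with library totals and 38 and 13 with RLE. These became 20 and 2 without KO library 1, 26 and 3 without KO library 2, 27 and 4 without WT library 1, and 22 and 8 without WT library 2. The called numbers were 9 to 11 higher with 1 library left out (9 without KO library 1) and 11 with DESeq2, and most of these clusters were at low level. The cluster cl374 (mm9 chromosome 17, 71146419 to 71153323, within Dlgap1) had 0.991 and 1.09 CPM in KO and 0.537 and 0.193 CPM in WT (1.48 ± 0.32, edgeR adjusted p = 0.00132). The cluster cl208 (chromosome 12, 112497219 to 112507218, within Traf3) had 3.21 and 3.28 CPM in KO and 5.94 and 6.42 CPM in WT (-0.93 ± 0.12, edgeR adjusted p = 9.14e-06), and cl825 (chromosome 9, 27152046 to 27166438, outside genes) fell by 0.56 on the log2 scale. The test for cl374 did not pass without either KO library or WT library 2 (edgeR adjusted p 0.0133 to 0.0292), nor that for cl825 without KO library 1 or WT library 1 (0.0199 and 0.0104). The groups did not overlap in any of the 3.

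The most abundant clusters changed little. The cluster cl367 (chromosome 17, 49247411 to 49255034, outside genes and 10498 bases from Lrfn2) had 333 and 325 CPM in KO and 363 and 356 CPM in WT (-0.13 ± 0.04, edgeR adjusted p = 0.0306). The cluster cl397 (chromosome 19, 5801022 to 5808025), whose interval overlaps the nuclear RNA Malat1, had 288 and 268 CPM in KO and 221 and 221 CPM in WT (0.33 ± 0.05, edgeR adjusted p = 5.40e-05). The cluster cl446 (chromosome 2, 130410808 to 130418751, within Ubox5) had 194 and 196 CPM in KO and 187 and 203 CPM in WT, and these overlapped (edgeR adjusted p = 0.996). The test for cl367 passed with RLE (adjusted p = 0.0089) and DESeq2 (0.0045).

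The KO effect on the clusters was also compared between stages, here without a fold minimum. It exceeded that of meiotic cells for 65 of the 402 (16.2%) and was below it for none (0.0%) at an adjusted p under 0.01 in edgeR, a test chosen after the data were seen. At an unadjusted p under 0.05 the numbers were 106 and 10, and DESeq2 gave 66 and 0. Without KO library 1 the count was 25, without WT library 2 it was 38 and without meiotic WT library 1 it was 40. Of the 65, 63 were among the 107 clusters that had at least 1 RPKM in meiotic WT cells. This limit uses a group of the contrast, so the counts that follow are a description. The other 295 clusters had few reads, with a summed level of 342 and 363 CPM in post-meiotic KO and 333 and 341 CPM in post-meiotic WT. In post-meiotic cells 32 of the 107 were higher and 5 lower (median 0.15), whereas in meiotic cells 1 was higher and 72 were lower (median -0.34). Of these 107, 22 were higher in post-meiotic KO cells and lower in meiotic KO cells. The cluster cl494 (chromosome 3, 20358922 to 20368880, outside genes), chosen after its values were seen, had 25.7 and 27.6 CPM in post-meiotic KO and 16.3 and 16.3 CPM in post-meiotic WT (0.71). In meiotic cells it had 57.9 and 63.6 CPM in KO and 104 and 90.7 CPM in WT (-0.68), a difference between stages of 1.39 ± 0.10 (edgeR adjusted p = 8.23e-07). Its neighbour cl495 (chromosome 3, 20378018 to 20386923), chosen in the same way, changed by 0.84 in post-meiotic and -0.65 in meiotic cells. Summed over all clusters tested, the level was 5290 and 5274 CPM in KO and 4815 and 4659 CPM in WT in post-meiotic cells, and 29423 and 34158 CPM in KO and 42851 and 39801 CPM in WT in meiotic cells. The cluster RNA of post-meiotic libraries was thus several times lower than that of meiotic libraries in both genotypes. The part of carried-over spermatocytes or their RNA in the post-meiotic cluster values was not tested.

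**Figure D5:**
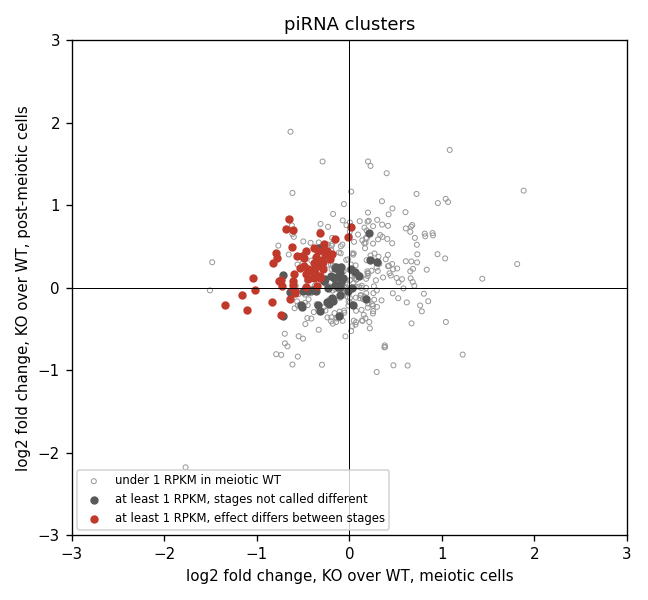
Log2 change of KO over WT for each of 402 piRNA clusters in meiotic cells (horizontal) and post-meiotic cells (vertical), with clusters of at least 1 RPKM in meiotic WT whose effect differed between stages in red. The red points lie mostly left of 0 and above the diagonal. Of the 107 clusters of that level, 63 passed the test of the difference, each with a vertical value above its horizontal one.

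The genes of the piRNA pathway itself were split, with 3 of 23 higher and 5 lower and a median of 0.02 (6 and 2 with library totals, median -0.02 with RLE). Fkbp6, a co-chaperone of piRNA loading, had 21.9 and 23.8 CPM in KO and 15.7 and 14.7 CPM in WT (0.58 ± 0.07, edgeR adjusted p = 3.88e-06), and the helicase Mov10l1, which acts early in piRNA production, had 60.9 and 59.8 CPM in KO and 47.0 and 46.1 CPM in WT (0.37). The methyltransferase Prmt5 rose by 0.46. Rnf17, a Tudor protein of spermatids, had 261 and 254 CPM in KO and 321 and 318 CPM in WT (-0.31), and Gtsf1, a partner of PIWI proteins, had 284 and 289 CPM in KO and 338 and 362 CPM in WT (-0.29). With 1 library left out the number lower was 2, or 3 without WT library 2.

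Repeats were counted by family as RPM, reads relative to all repeat reads on a fixed scale, and 962 of 1208 families were tested. At a log2 change beyond 0.5, 2 families (0.208%) were higher in KO and 5 (0.52%) lower. Without a fold minimum 10 (1.04%) were higher and 61 (6.34%) lower, and the numbers lower were 18 without KO library 2 and 14 without WT library 2, with 5 and 7 higher. These directions depended on the scaling: relative to gene totals the called families were 6 higher and 1 lower and those without a fold minimum 49 and 9, and with TMM factors of the repeats themselves they were 2 and 3, and 22 and 46. Both families that rose were RLTR10 elements, the long terminal repeats of an endogenous retrovirus. RLTR10B had 156 and 146 RPM in KO and 105 and 108 RPM in WT (0.51 ± 0.07, edgeR adjusted p = 1.76e-10), less than its change of 0.86 in meiotic cells (difference -0.35, edgeR adjusted p = 0.00943). RLTR10B2 had 182 and 172 RPM in KO and 116 and 121 RPM in WT (0.58 ± 0.07, edgeR adjusted p = 5.71e-14). The other 6 RLTR10 families tested did not pass.

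Among families with smaller changes, the internal part of an intracisternal A particle, IAPLTR3-int, had 950 and 879 RPM in KO and 668 and 685 RPM in WT (0.44 ± 0.05, edgeR adjusted p = 5.71e-14). Its change was -0.11 in meiotic cells (difference 0.54 ± 0.07, edgeR adjusted p = 2.80e-11). Of 16 IAP families 2 rose and none fell without a fold minimum, beside 1.04% of all families tested higher and 6.34% lower. The other that rose, IAPEY3-int, had a small change (0.22 ± 0.06, edgeR adjusted p = 0.0025). The internal part of the VL30 retrotransposon, MMVL30-int, had 7013 and 8165 RPM in KO and 5833 and 5705 RPM in WT (0.40). IAPLTR3-int, IAPEY3-int and MMVL30-int were chosen after their values were seen. Among the 5 families that fell, MER113A had 110 and 103 RPM in KO and 143 and 171 RPM in WT (-0.55 ± 0.07, edgeR adjusted p = 4.52e-12), and MamGypLTR3 had 8.67 and 10.4 RPM in KO and 17.6 and 17.9 RPM in WT (-0.89 ± 0.16, edgeR adjusted p = 1.06e-06). The largest share of repeat reads belonged to 7SLRNA, with 15.7% and 17% in KO and 15.0% and 13.4% in WT (0.21), a change that did not pass without KO library 1, KO library 2 or WT library 2 (edgeR adjusted p 0.0101, 0.284 and 0.453). Of 89 L1 families 1 rose and 1 fell, also without a fold minimum. Without WT library 1 the called families were 1 higher and 8 lower, and without WT library 2 they were 3 and 3.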

How the data were processed

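RNA-seq libraries of total RNA from 4 groups (post-meiotic and meiotic KO and WT cells, 2 libraries each) were used. According to the methods and the submitters' processing notes, the authors aligned single-end reads of stranded TruSeq libraries to mm9 with TopHat 2.0.14 and Bowtie 2.1.0, kept uniquely aligned reads and counted Ensembl genes with HTSeq 0.6.1. The strand setting of the gene counts is not given in the sources used here. Reads over listed types of genes and their flanks were removed by the authors, with regard to strand, before piRNA clusters were counted with BEDTools. Repeats were counted by family. The deposited tables hold raw read counts for each library, which were used. Their columns of the authors' own comparisons (log2 fold changes and adjusted p-values) were not used.

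Counts were tested with edgeR 4.0.16 (R 4.3.3) by the robust quasi-likelihood test over all 8 libraries with 4 group means, TMM factors and filterByExpr. Clusters were fitted jointly with the genes, and repeat families of at least 5 RPM were scaled by the repeat total. Calls required a change past 1 on the log2 scale (genes) or 0.5 (clusters, repeats) with an adjusted p under 0.01, and list members were counted without a fold minimum. DESeq2 1.42.0, other scalings, filters, a replicate block, the 4 post-meiotic libraries alone, and the omission of each library were alternatives. A DESeq2 adjusted p of NA was kept as such. The scripts were tested on simulated data.

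Genes named are the targeted pair, the largest called changes with at least 50 reads on average in the higher group, and the most significant members of each list. Some others, and the clusters and repeats so marked, were named after their values were seen. The members and lists (heat shock, H3.3 and H3 chaperones, histones, spermatid, meiotic, spermatogonial, somatic, blood, immune and metabolic genes, and positional lists) were chosen with earlier results of these data known. The same number of a KO and a WT library marks no shared animal or batch in the labels. Promoters are from RefSeq (GRCm38.p6), and other coordinates are mm9.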

Additional observations from a re-analysis of the deposited data

Results flagged for a closer look

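The test of the difference between stages flagged the values that follow, each the KO effect in post-meiotic cells minus that in meiotic cells. With a log2 difference beyond 1 it passed for 102 genes in the upward and 1 gene in the downward direction. Without a fold minimum it passed for 65 piRNA clusters in the upward and 0 in the downward direction, so these counts are not to be compared. For the clusters, 106 were higher and 10 lower at an unadjusted p under 0.05 in edgeR, and DESeq2 gave 66 and 0.

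Mgp, a matrix protein gene, differed by 2.96 log2 units and SNORA4, a small nucleolar RNA of under 1 CPM in each post-meiotic library, by 3.04. Gli1, Ogn, Slc38a1 (a glutamine transporter) and Kcnk1 (a potassium channel) differed by 2.85, 2.56, 2.16 and 2.09. The difference for SNORA4 did not pass once any single library was left out (edgeR adjusted p 0.0114 to 0.0826). Those for Slc38a1 (0.0128 to 0.0325) and Kcnk1 (0.0142 to 0.0486) did not pass without KO library 1, KO library 2, WT library 2, meiotic KO library 2 or meiotic WT library 1. Gli1 and Ogn also lost their calls in such fits, as given above. The meiotic changes of all 6 genes were below 0 and their post-meiotic changes above 0. The single gene in the other direction was Gm4204, a predicted gene that was named after its values were seen. It had 0.411 and 0.575 CPM in post-meiotic KO and 0.580 and 0.466 CPM in post-meiotic WT, and 0.285 and 0.315 CPM in meiotic KO and 0 and 0.0170 CPM in meiotic WT, a difference of -5.03 that depends on a WT group near 0. H3f3b differed by 0.72, Hspbap1 by -0.93 and Hsf2 by -0.35, and the repeat family RLTR10B by -0.35.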

How the results depend on the processing

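With 2 libraries a group, the counts moved with the setting, and so did the balance of directions. Against 448 genes higher and 174 lower, DESeq2 gave 274 higher, a test against a fold of 2 gave 45 and 26, and no fold minimum gave 2529 and 2376. Leaving out 1 library gave 260 to 441 higher and 131 to 162 lower. For the difference between stages (102 higher and 1 lower), RLE gave 2 lower, no filter on low counts 218 higher and 9 lower, and leaving out 1 library 14 to 136 higher and 0 to 4 lower. For the clusters (19 higher and 2 lower), library totals gave 33 and 1, DESeq2 11 higher, a minimum of 1 RPKM in post-meiotic WT 2 and 0, and leaving out 1 library 9 to 11 higher and 1 to 3 lower. Their difference between stages (65 and 0), whose alternatives were chosen after seeing the data, was 25 to 72 higher and 0 to 1 lower with 1 library left out, and 1 was lower without a filter on low counts. For the repeats (2 higher and 5 lower), gene totals gave 6 and 1, their own TMM factors 3 lower, a minimum of 50 RPM 1 lower, DESeq2 2 lower, the 4 post-meiotic libraries alone 3 lower, no fold minimum 10 and 61, and leaving out 1 library 1 to 3 higher and 3 to 8 lower. The cause of these moves was not tested.

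The same replicate number does not mark a pair in the labels, and deviations of same-numbered KO and WT libraries correlated at 0.033. With the replicate block 474 genes were called higher and 180 lower, 19 clusters higher and 2 lower, and 2 repeat families higher and 5 lower, whereas the difference between stages passed for 175 genes upward and 5 downward and for 67 clusters.

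Of 215 named genes, 213 passed; 75 missed the limit in at least 1 fit without a library, 21 with library totals, 9 with RLE and 29 in DESeq2 (a missing adjusted p included), and none changed sign in any setting. Only the cluster cl446, which did not pass, changed sign: its change was -0.00 and became 0.10 with library totals, 0.00011 with the replicate block, 0.0010 with clusters fitted alone and lay between -0.0772 without WT library 1 and 0.0522 without WT library 2.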
